A study of Mus musculus with 12 samples.

Results

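Proteasome genes were read in mouse embryonic stem cells after exposure to hydrogen peroxide. The genes were those whose single symbol in the MG_U74Av2 array annotation starts with Psma, Psmb, Psmc, Psmd, Psme or Psmf followed by a digit. They numbered 42 of the 8252 genes with a symbol of their own, read by 53 of 10855 such probe sets (a probe set is a group of short oligonucleotides for one transcript). Of the 42 genes 40 passed the filter on dim probe sets and were tested, and those left out were the immunoproteasome gene Psmb8 and the ATPase gene Psmc4. The symbol rule also took in Psmc3ip and Psme3ip1, which encode partner proteins and not subunits. No Psmf1 probe set was found by the rule, and Psme2 is not analysed here because its 2 probe sets carry a further symbol.

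All cells were of clone C2, 1 clone of the E14tg2a line with targeted I-SceI sites. The groups were cells in phosphate-buffered saline (PBS) alone (the controls, n = 3), cells given 100 µM H2O2 in PBS for 15 min (the low dose, n = 4) and cells given 5 mM H2O2 in PBS for 30 min (the high dose, n = 5), both peroxide groups being sampled after 1 h back in medium. The doses thus differ in both concentration and length of exposure. The control descriptions mention neither a time in PBS nor a return to medium, so against the controls peroxide and that return cannot be told apart. Nothing in the labels says that replicates were separate cultures, and the p-values measure the spread among these arrays alone, which may be technical.

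The proteasome is the protease that degrades proteins tagged with ubiquitin. Its core particle is a barrel of stacked rings, with outer rings of alpha subunits (Psma genes) that gate the entrance and inner rings of beta subunits (Psmb genes), some of which carry the proteolytic sites. A regulatory particle caps the barrel: its ATPases (Psmc genes) unfold substrates, and its non-ATPase subunits (Psmd genes) recognise ubiquitin, remove it and hold the particle together. Activators (Psme genes) can cap the barrel instead. In oxidatively stressed cells the core particle, with or without a cap, is known to clear oxidised proteins.

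Values are MAS5 signals on a linear scale; they are compared between groups within a probe set, not between genes. Log2 changes are on the scale of log2(signal + 10.07), an offset that shrinks changes of dim probe sets. A change was called at a Benjamini-Hochberg adjusted p under 0.05 in limma, adjusted over all 8695 tested probe sets. Over the probe sets (no independent replicates) the correlation was 0.958 to 0.978 within groups and 0.921 to 0.957 between them. The ratio of the 3' to the 5' Actb control probe set, a measure of RNA quality, varied most among the controls. It was 0.871 to 1.99 there, 1.11 to 1.49 at the low dose and 1.05 to 1.49 at the high dose. The brightest probe set read 7206 to 8904 on the control arrays, 14976 to 24225 at the low dose and 19733 to 34685 at the high dose, so the top of the scale differed between the groups. Of the 10 embryonic stem cell markers listed, all were tested, with summed signals of 26553 to 29677 in the controls, 33036 to 38768 at the low dose and 30121 to 35787 at the high dose. Primitive endoderm markers (16 of 17 tested) summed to 7435 to 11693, 10646 to 11684 and 1773 to 2001 in the same order, and fibroblast markers (8 of 14 tested) to 729 to 1039, 820.5 to 968 and 828 to 1079. The sums are weighted to the brightest markers. Of the 10 stem cell markers 4 rose and 1 fell at the low dose (median log2 change 0.35), and 2 rose and 1 fell at the high dose (median -0.14). Among all tested genes 11.9% rose and 12.7% fell at the low dose, and 5.36% rose and 6.84% fell at the high dose. Against the controls only Thy1 of the 8 fibroblast markers was called, with means of 109 in the controls and 30.9 at the low dose. No tested marker was at 0 in any group, which does not show that each was expressed. Some lay near the offset, with high-dose means of 11.3 for Foxa2, 21.2 for Ttr, 23.6 for Gata6, 27.7 for Afp and 28.6 for Dab2 among them. In bulk samples fewer cells of a type and less RNA per cell cannot be told apart.

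The first comparison asked how proteasome transcripts differed from the controls after the low dose. A subset fell by up to 2.22-fold while the rest did not pass the test. Of the 40 tested genes 10 fell, 0 rose and 30 did not pass; at an unadjusted p under 0.05 there were 13 lower and 1 higher, where 1155 lower and 1209 higher were found among all 6414 tested genes. After adjustment 24.6% of all tested genes were called, with 12.7% falling and 11.9% rising, against 25.0% of the proteasome genes falling. The arrays of the groups did not overlap for 13 of the 40 genes in the downward direction (15.2% of all genes) and for 1 in the upward direction (17.2% of all genes). The median log2 change of the 40 genes was -0.11, beside 0.04 over all genes tested. The falls came from 4 core beta genes of 9 tested, 1 ATPase gene of 5, 4 non-ATPase genes of 11 and 1 activator gene of 3. None of the 7 core alpha genes passed in limma, with 2 at an unadjusted p under 0.05. In the same comparison 5 of the 16 primitive endoderm markers rose and 0 fell (median 0.23), Foxa2 by 2.62 ± 0.34 and Gata6 by 1.76 ± 0.26 on the log2 scale among them, and their part in the proteasome values was not tested. The lowest Foxa2 control array, at 8.38, was under the offset, and the highest was at 67.0.

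**Figure D1:**
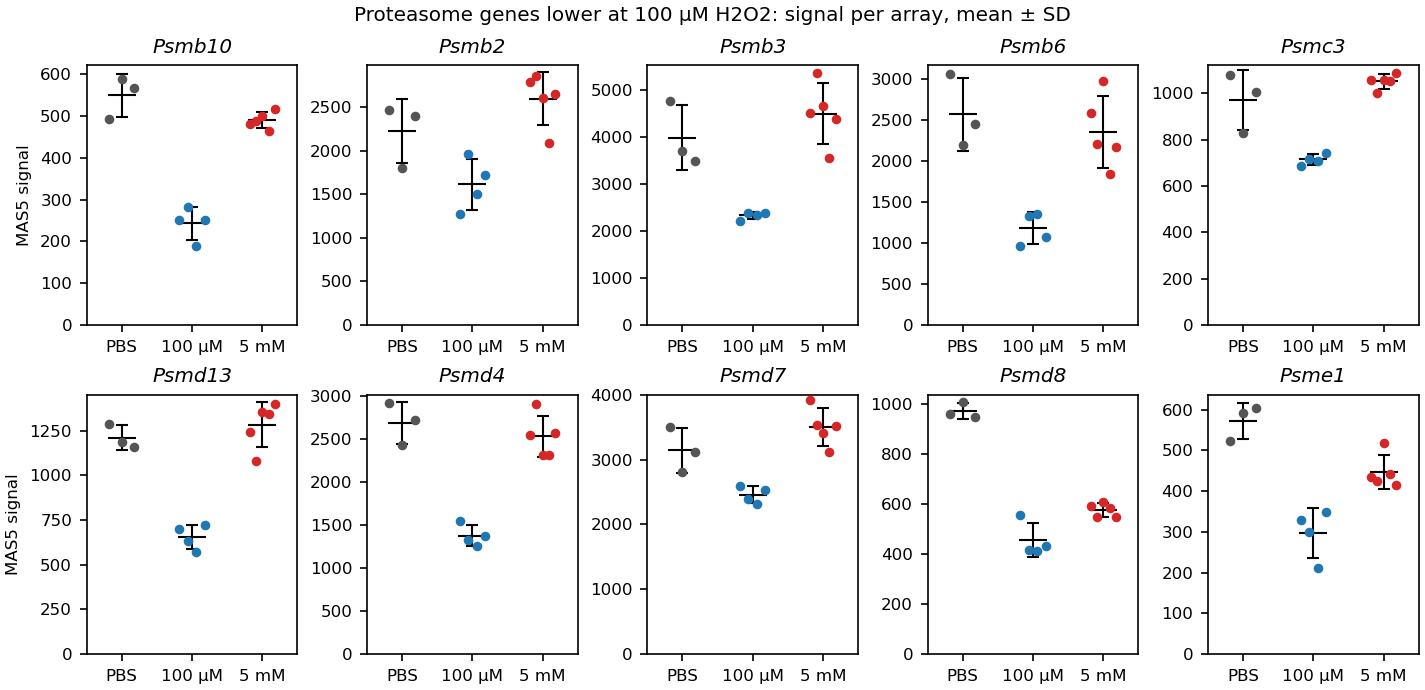
MAS5 signal (linear axis from 0) of the 10 proteasome genes that fell at the low dose, 1 point per array, with the mean and SD of the PBS controls (n = 3), the 100 µM group (n = 4) and the 5 mM group (n = 5). For 9 of the 10 genes every low-dose array sits below every control array, Psmb2 being the exception, and at 5 mM only Psmd8 is called lower than the controls.

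Among core beta genes, Psmb6 encodes the subunit with caspase-like activity. Its signal was 3059.5, 2191 and 2452 on the control arrays, 959.9, 1329, 1355 and 1066 on the low-dose arrays, and 2582, 2199.6, 2978, 1842 and 2165 on the high-dose arrays. All low-dose arrays lay below all others. At the low dose Psmb6 fell 2.17-fold (log2 change -1.12 ± 0.17, SE; adjusted p = 3.6e-04). Psmb10 encodes the immunoproteasome subunit that takes the place of Psmb7 in cells exposed to interferon. Its signal was 492, 589 and 568 in the controls, 250.1, 283, 189 and 250.1 at the low dose, and 480.3, 488, 501, 464 and 516 at the high dose. It fell 2.22-fold at the low dose (-1.15 ± 0.14, adjusted p = 4.8e-05), again with no low-dose array reaching any other array.

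Psmb3 and Psmb2 encode beta subunits without a proteolytic site. For Psmb3 the controls read 4766, 3706 and 3478, the low-dose arrays 2216, 2386, 2348 and 2378, and the high-dose arrays 4507, 5365, 4658, 3549 and 4375. It fell 1.69-fold at the low dose (-0.76 ± 0.14, adjusted p = 0.00167), and the low-dose arrays were closer to each other (SD 79.0) than those of either other group (SD 687 and 650.5). For Psmb2 the controls read 2468, 1802 and 2403, the low-dose arrays 1271, 1963, 1508 and 1719, and the high-dose arrays 2785, 2853, 2607, 2084 and 2656. Here the low-dose and control arrays overlapped. The change of -0.46 ± 0.16 was close to the threshold (adjusted p = 0.0476) and did not pass under 13 of 23 alternative settings, leaving out control replicate 1 (adjusted p = 0.151) or control replicate 3 (0.154) among them. The other beta genes tested did not pass at the low dose, with log2 values of -0.03 for Psmb1, -0.08 for Psmb4, -0.11 for Psmb7, -0.21 for Psmb5 and 0.17 for Psmb9.

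In the regulatory particle, Psmd4 encodes a receptor for ubiquitin chains. It read 2915, 2429 and 2719 in the controls, 1547, 1322, 1261 and 1368 at the low dose, and 2540.4, 2901, 2319, 2319 and 2568 at the high dose. The low-dose arrays stood apart from both other groups, which overlapped each other. Psmd4 fell 1.95-fold at the low dose (-0.96 ± 0.12, adjusted p = 7.9e-05). Psmd13 and Psmd8 encode subunits of the lid, the part of the regulatory particle that holds the deubiquitinase. Psmd13 read 1289.9, 1184 and 1158 in the controls, 701, 634, 574 and 719.9 at the low dose, and 1244, 1082, 1356, 1341 and 1398 at the high dose. It fell 1.83-fold at the low dose (-0.88 ± 0.12, adjusted p = 2.0e-04). Psmd8 read 960.3, 1008 and 949 in the controls, 558, 418, 414 and 433 at the low dose, and 593, 550.1, 608, 583 and 547 at the high dose. Unlike the genes above, both peroxide groups lay wholly below the controls. Psmd8 fell 2.12-fold at the low dose (-1.09 ± 0.12, adjusted p = 3.0e-05).

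Psmd7, whose product pairs with the deubiquitinase subunit, read 3504, 2814 and 3111 in the controls, 2592, 2391, 2322 and 2537 at the low dose, and 3922, 3533, 3413, 3116 and 3511 at the high dose. The fall at the low dose was small (-0.35 ± 0.12, adjusted p = 0.0423), and it did not pass under 13 of 23 alternatives, leaving out control replicate 1 (0.153) among them. The ATPase gene Psmc3 read 1079, 828 and 1005 in the controls, 685, 718, 709 and 743 at the low dose, and 1057, 1000.5, 1057, 1054 and 1088 at the high dose on its brightest probe set. It fell 1.35-fold at the low dose (-0.43 ± 0.11, adjusted p = 0.0125), but its probe sets disagreed, as described below. Psme1, a subunit of the interferon-inducible activator ring, read 522, 592 and 604 in the controls, 329.8, 299, 212 and 349 at the low dose, and 434, 425, 518, 442 and 416 at the high dose. It fell 1.92-fold at the low dose (-0.94 ± 0.16, adjusted p = 6.4e-04), with the high-dose arrays in between and overlapping neither other group.

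Of the 10 falls, those of Psmb3, Psmb6, Psmb10, Psmd4, Psmd8, Psmd13 and Psme1 (7 genes) passed under all alternative settings that gave a value for them. Scaling each array to a common median moved the median of all genes at the low dose from 0.04 to -0.13 and that of the proteasome genes from -0.11 to -0.30, with 14 genes lower and 0 higher. After quantile normalization 11 were lower and 0 higher, and the log2 changes of Psmb6, Psmb10 and Psmd4 were -1.16, -1.16 and -0.99. For these and the other alternative settings, in every comparison, the share of all genes called is not given. The counts under them therefore have no background beside them.

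The second comparison set the high dose against the controls. Of the proteasome genes 4 rose, 2 fell and 34 did not pass, which is 15.0% called, near the background share, where 12.2% of all genes were called (5.36% rose and 6.84% fell), against 10.0% and 5.00% of the proteasome genes. The arrays of the groups did not overlap for 5 genes upward (8.84% of all genes) and 4 downward (11.7% of all genes). The median log2 change was 0.07 over the 40 genes and -0.01 over all genes, and the proteasome median changed sign to -0.05 both with quantile normalization and when bright probe sets (mean signal over 2000) were dropped. Of the 16 primitive endoderm markers 11 fell and 0 rose at this dose (median -2.38), and their part in these values was not tested.

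Psmd8 fell 1.68-fold at the high dose (-0.75 ± 0.12, adjusted p = 6.8e-04), a call kept under all 24 alternatives. The core alpha gene Psma1 read 723, 568 and 591 in the controls, 512, 567, 482 and 389 at the low dose, and 342, 438, 440.2, 392 and 366 at the high dose. The high-dose arrays lay below all control arrays, and Psma1 fell 1.57-fold (-0.65 ± 0.14, adjusted p = 0.00799). At the low dose its value of -0.36 ± 0.15 did not pass (adjusted p = 0.0907; 0.0307 after scaling to a common median).

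The genes that rose at the high dose were Psma4, Psmb7, Psmd6 and Psmd11. Psma4, a gate subunit gene, read 2451, 2127 and 2159.7 in the controls, 2524, 3261, 2656 and 4062 at the low dose, and 3750.2, 3512, 2452, 3035 and 3846 at the high dose, a change of 0.55 ± 0.17 (adjusted p = 0.0473). Psmb7, which encodes the subunit with trypsin-like activity, read 1977, 1827 and 2021 in the controls, 1786, 1772, 2042 and 1598 at the low dose, and 2659, 2531, 2735, 2489 and 2614 at the high dose. All its high-dose arrays lay above all others, and it rose 1.34-fold (0.42 ± 0.11, adjusted p = 0.0180). The lid gene Psmd11 read 2072, 1916 and 1951 in the controls, 2011, 2369, 2411 and 1913 at the low dose, and 3339, 2883, 3097, 2432 and 2409 at the high dose (0.50 ± 0.13, adjusted p = 0.0220). For the lid gene Psmd6 the controls read 1930.2, 1615 and 1451, the low-dose arrays 1956, 1759, 2201 and 1812, and the high-dose arrays 2115, 2081, 2492, 2307 and 2227 (0.44 ± 0.12, adjusted p = 0.0303). None of these 4 rises passed after scaling to a common median (0 higher and 2 lower) or without control replicate 2, and after quantile normalization 3 genes were higher and 3 lower. Without control replicate 3 the count was 1 higher and 2 lower.

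**Figure D2:**
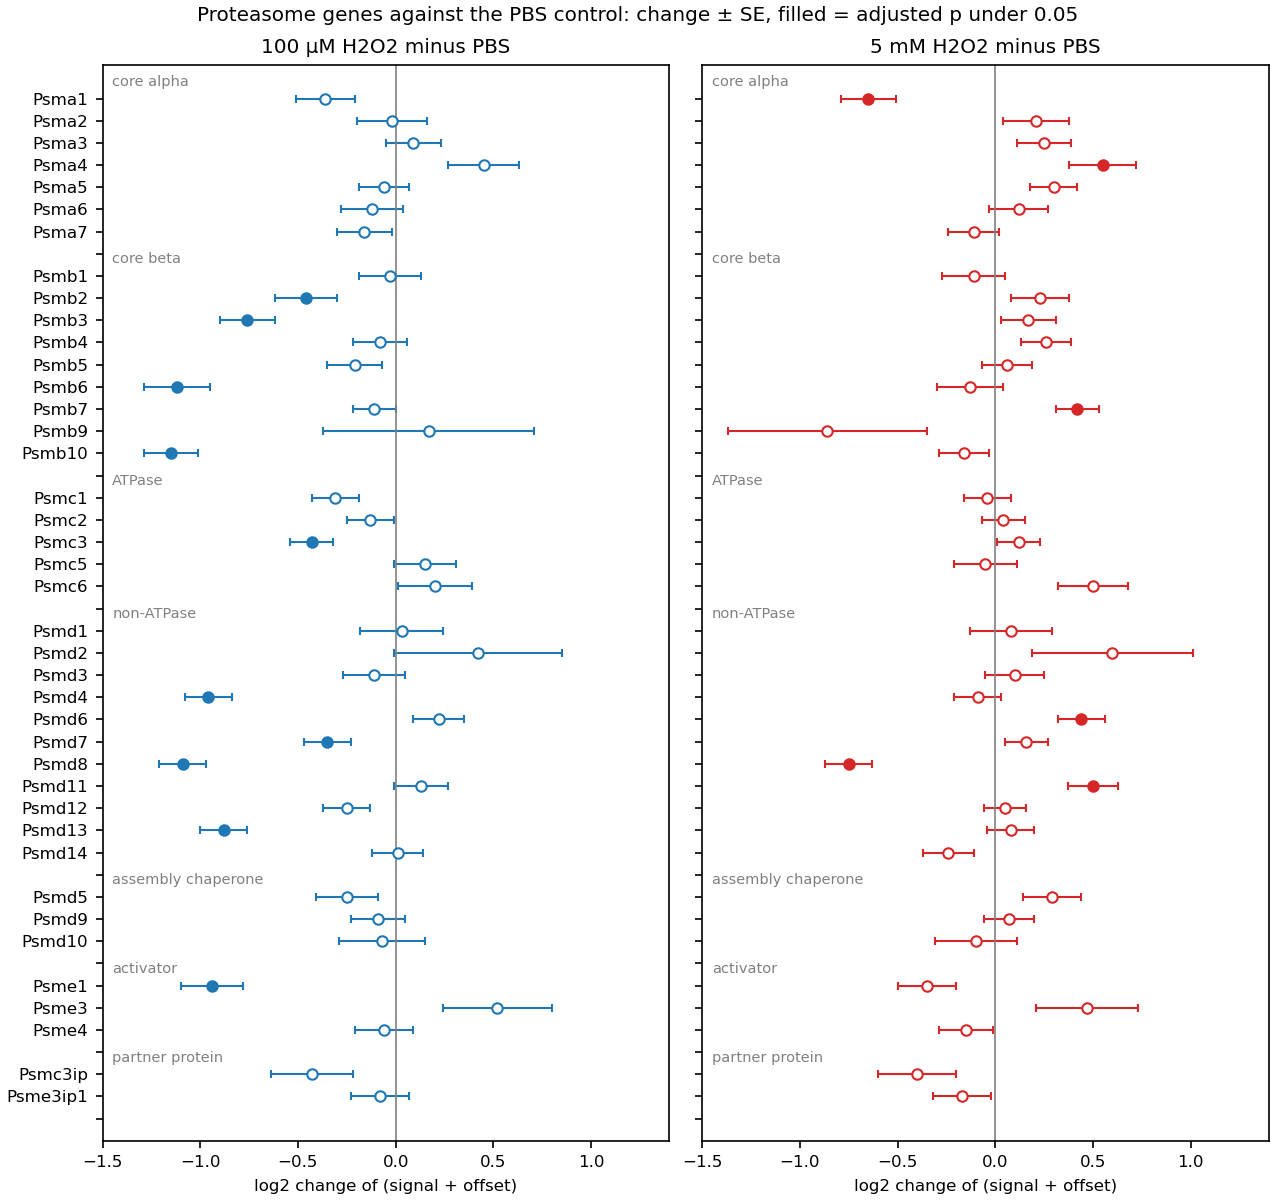
Log2 change of (signal + offset) against the PBS controls, with its SE, for the 40 tested genes grouped by class, at 100 µM (left, blue) and 5 mM (right, red); filled points have an adjusted p under 0.05. The falls at 100 µM lie among core beta, ATPase, non-ATPase and activator genes at -0.35 to -1.15, and at 5 mM the filled points are 2 falls and 4 rises.

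The 10 genes that fell at the low dose had the following values against the controls at the high dose, with both comparisons sharing the same control arrays. The log2 values at the high dose were -0.16 for Psmb10 (95% confidence interval -0.44 to 0.12), -0.13 for Psmb6 (-0.48 to 0.22), -0.09 for Psmd4 (-0.33 to 0.16), 0.08 for Psmd13 (-0.17 to 0.33) and 0.17 for Psmb3 (-0.12 to 0.47). Each of these intervals includes 0. For Psmb2, Psmc3 and Psmd7 the values were 0.23, 0.12 and 0.16. Psme1 had a value of -0.35 (-0.67 to -0.03), which did not pass after adjustment (adjusted p = 0.146), and Psmd8 was lower at both doses. After quantile normalization the high-dose values of Psmb3 and Psmd7 turned to -0.20 and -0.06, and the rest of the 10 genes kept their sign.

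The third comparison, high against low dose, tests the difference between the treatments directly, on the same low-dose arrays as the first comparison. No control array enters the difference itself, but the control arrays share in the estimate of the spread behind its SE and p-values. Proteasome genes were higher at the high dose: 16 rose, 0 fell and 24 did not pass. At an unadjusted p under 0.05 there were 18 higher and 3 lower, beside 1218 higher and 1351 lower among all 6414 genes. Of all genes 29.0% were called (13.8% rose and 15.2% fell), against 40.0% of the proteasome genes rising. The arrays did not overlap for 13 genes, all higher at the high dose (12.4% of all genes upward). The median was 0.24 over the 40 genes and -0.04 over all genes; it was 0.14 after quantile normalization, where 12 rose, and 0.35 with a common median, where 18 rose. By class, 6 of 9 core beta genes, 6 of 11 non-ATPase genes, 1 of 7 core alpha genes, 1 of 5 ATPase genes, 1 of 3 assembly chaperone genes and 1 of 3 activator genes rose. Of the primitive endoderm markers 12 of 16 fell and 0 rose between the doses (median -2.64), with Dab2 at -4.90 ± 0.22 and Gata6 at -4.31 ± 0.23, and their part in the proteasome values was not tested.

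Since the low-dose arrays are shared, a gene that read low on them in the first comparison tends to read higher here, and the values of those genes are given side by side with no count of agreement. Psmd13 read 1.94-fold higher at the high than at the low dose (0.96 ± 0.11, adjusted p = 1.0e-05). Psmd4 was 1.83-fold higher (adjusted p = 2.0e-05), Psmb10 1.99-fold (2.1e-05), Psmb3 1.91-fold (5.4e-05), Psmb6 1.98-fold (1.7e-04) and Psme1 1.51-fold (0.00462). Psmd8, low in both, differed less (0.34 ± 0.11, adjusted p = 0.0271). The others that rose were Psmb2 (0.69), Psmc3 (0.55, and 0.04 on its second probe set), Psmd7 (0.50), Psmb7 (0.54), Psma5 (0.36), Psmd11 (0.37), Psmb4 (0.34), the lid gene Psmd12 (0.31) and Psmd5 (0.54), whose product is a chaperone of regulatory particle assembly. Psmd5 read 1433, 1542 and 1687 in the controls, 1105, 1336, 1258 and 1550.3 at the low dose, and 2109, 2511, 1507, 1718 and 1819 at the high dose, and low- and high-dose arrays overlapped by 1 array on each side. Psmd5 and Psmb7 passed under all alternatives, while Psmb4 did not pass under 15 of 23. Psma5, Psmd8, Psmd11 and Psmd12 lost the call without high-dose replicate 1 (adjusted p = 0.0552, 0.0581, 0.0793 and 0.0895) and without low-dose replicate 4 (0.0700, 0.0617, 0.0900 and 0.0856).

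The core particle holds its proteolytic sites in Psmb6, Psmb7 and Psmb5, the last with chymotrypsin-like activity, and in immune cells or after interferon these are replaced by the products of Psmb9, Psmb10 and Psmb8. The genes of this set did not share one pattern. Psmb6 and Psmb10 fell at the low dose, while Psmb7 and Psmb5 did not pass there. Psmb5 read 2386, 2486 and 2323 in the controls, 2253, 1846, 1992 and 2203 at the low dose, and 2121, 2049.8, 2817, 2935 and 2722 at the high dose; all its low-dose arrays lay below the controls, at a log2 value of -0.21 ± 0.14 (adjusted p = 0.299). Psmb9 was variable, with 64.2, 84.6 and 89.8 in the controls, 183, 16.5, 122 and 138 at the low dose, and 47.4, 14.0, 75.3, 49.2 and 30.7 at the high dose. Its values of 0.17 ± 0.54 and -0.86 ± 0.51 did not pass; between the doses it was at -1.03, and at -1.66 (adjusted p = 0.00171) without low-dose replicate 2, the low-dose array at 16.5. Psmb8 was below the filter, at 14.1, 3.06 and 6.80 in the controls, 27.3, 14.9, 13.5 and 7.43 at the low dose, and 2.49, 3.55, 1.89, 2.07 and 3.61 at the high dose. Most of these are at or under the offset of 10.07, and no fold is given for it.

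**Figure D3:**
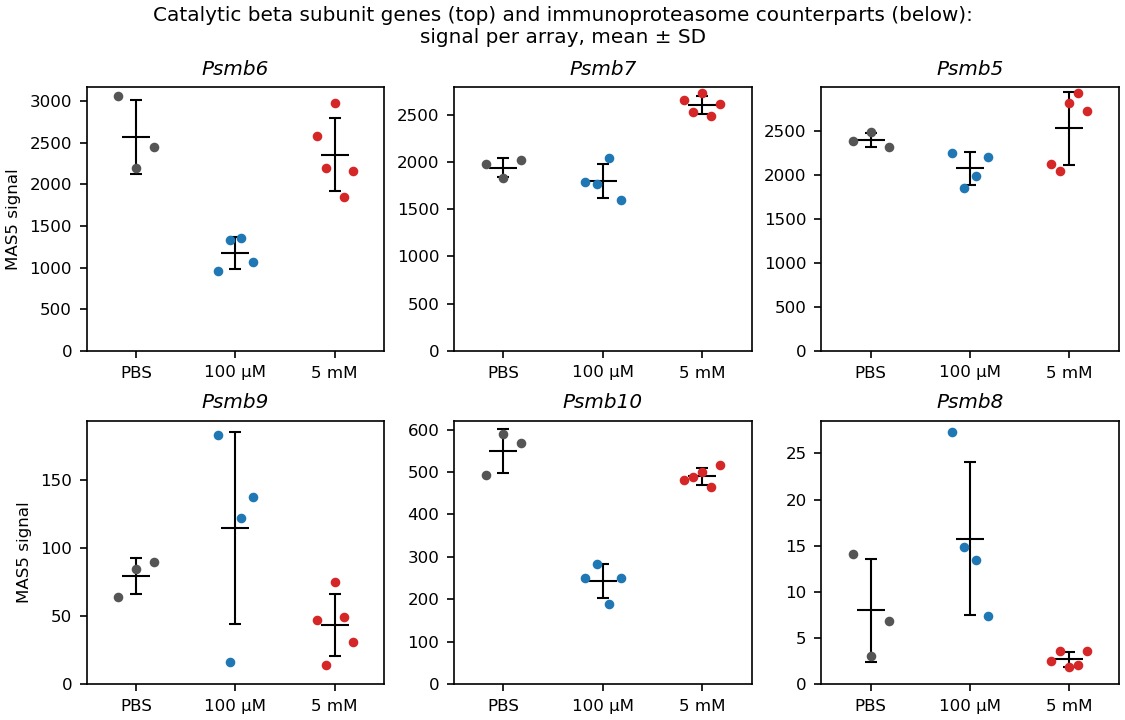
MAS5 signal per array (linear axes from 0, 1 scale per panel) of the genes for the catalytic beta subunits Psmb6, Psmb7 and Psmb5 (top) and their immunoproteasome counterparts Psmb9, Psmb10 and Psmb8 (below), with mean and SD for PBS (n = 3), 100 µM (n = 4) and 5 mM (n = 5). Psmb6 and Psmb10 are lowest on all 100 µM arrays, Psmb7 is highest on all 5 mM arrays, and Psmb8 does not exceed 27.3 on any array.

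Promoter sequence was matched for 36 of the 42 genes in a RefSeq table of build GRCm38.p6, and the 250 bases before each gene's start were searched on both strands for motifs of regulators named for this gene family or for stress and interferon responses. These were TGACNNNGC (the core of the antioxidant response element bound by Nfe2l1 and Nfe2l2), CCAAT (bound by NF-Y), the interferon response element (GAAA repeated after 2 bases of any kind) and GAANNTTC (a heat shock element core). The sequences below show Psmb6, Psmb3 and Psmd4, which fell at the low dose and hold a match, and Psmb5, which did not pass there and holds the same TGACNNNGC core as Psmb6. Capitals mark the matches. They lie at chr11:70525107-70525356 (plus strand) for Psmb6, chr11:97703184-97703433 (plus) for Psmb3, chr3:95042615-95042864 (minus) for Psmd4 and chr14:54617996-54618245 (minus) for Psmb5.
Psmb6: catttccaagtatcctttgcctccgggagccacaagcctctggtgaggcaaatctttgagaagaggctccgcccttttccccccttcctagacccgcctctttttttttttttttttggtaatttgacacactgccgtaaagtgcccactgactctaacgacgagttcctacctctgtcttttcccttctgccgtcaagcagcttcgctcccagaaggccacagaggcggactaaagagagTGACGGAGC
Psmb3: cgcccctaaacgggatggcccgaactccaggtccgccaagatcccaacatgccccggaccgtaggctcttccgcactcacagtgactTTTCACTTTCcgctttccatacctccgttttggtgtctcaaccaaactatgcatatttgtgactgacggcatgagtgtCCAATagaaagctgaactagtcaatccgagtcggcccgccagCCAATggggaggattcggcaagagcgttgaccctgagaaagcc
Psmd4: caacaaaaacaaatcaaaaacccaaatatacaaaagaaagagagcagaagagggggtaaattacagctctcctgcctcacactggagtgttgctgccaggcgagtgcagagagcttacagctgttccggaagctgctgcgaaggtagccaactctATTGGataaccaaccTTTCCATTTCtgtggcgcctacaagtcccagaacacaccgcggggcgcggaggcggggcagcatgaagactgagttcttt
Psmb5: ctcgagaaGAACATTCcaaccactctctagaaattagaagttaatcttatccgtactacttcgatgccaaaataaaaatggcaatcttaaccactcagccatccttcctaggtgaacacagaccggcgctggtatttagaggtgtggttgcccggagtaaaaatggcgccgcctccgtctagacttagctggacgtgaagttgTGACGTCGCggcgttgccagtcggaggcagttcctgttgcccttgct
In Psmb6 the capitals are TGACNNNGC, ending at the base before the start. In Psmb3 they are the interferon response element on the opposite strand and then CCAAT at 2 places, in Psmd4 CCAAT on the opposite strand and then the interferon response element, also on the opposite strand. In Psmb5 they are GAANNTTC and then TGACNNNGC.

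The counts of promoters with each motif were small. TGACNNNGC was found in 1 of the 7 genes with a matched promoter that fell at the low dose and in 4 of the 27 tested genes that did not, beside 11.5% of the 27025 genes of the promoter table. CCAAT was found in 2 of 7 and 13 of 27 (37.5% of all genes), the interferon response element in 2 of 7 and 1 of 27 (3.46%), and GAANNTTC in 0 of 7 and 2 of 27 (7.73%). The windows of the proteasome genes had a median GC content of 56.6% and a median of 15 CpG dinucleotides, against 52.0% and 6 over all genes. A match is a description of the letters in the window.

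Several genes were read by more than 1 tested probe set, and these did not always give the same value. For Psmc3 the brightest probe set (-0.43) and the dimmest (-0.50 ± 0.16, adjusted p = 0.0375) fell at the low dose, while the middle one read 719.9, 668 and 684 in the controls and 719, 593, 748 and 638 at the low dose, a value of -0.04 ± 0.12 (adjusted p = 0.851). A dim probe set of Psmb5 went the other way from the bright one: 51.0, 96.8 and 77.1 in the controls and 159, 124, 208 and 107 at the low dose, a rise of 0.90 ± 0.25 (adjusted p = 0.0155). Those arrays did not overlap. For Psmd11 the rise at the high dose on the brightest probe set (0.50) stood beside 0.11 and 0.06 on the others, and neither of these passed. The second Psmb1 probe set was higher at the high than at the low dose (0.45 ± 0.16, adjusted p = 0.0403), with -0.08 on the brightest. At the low dose the dimmest Psmb1 probe set had 1.19 ± 0.43 (limma adjusted p = 0.0533), where the brightest had -0.03. The low-dose arrays of that dim probe set (21.6 to 62.1) all lay above its controls (4.15 to 19.2), which were close to the offset. Which probe set reads the mature transcript was not tested.

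**Figure D4:**
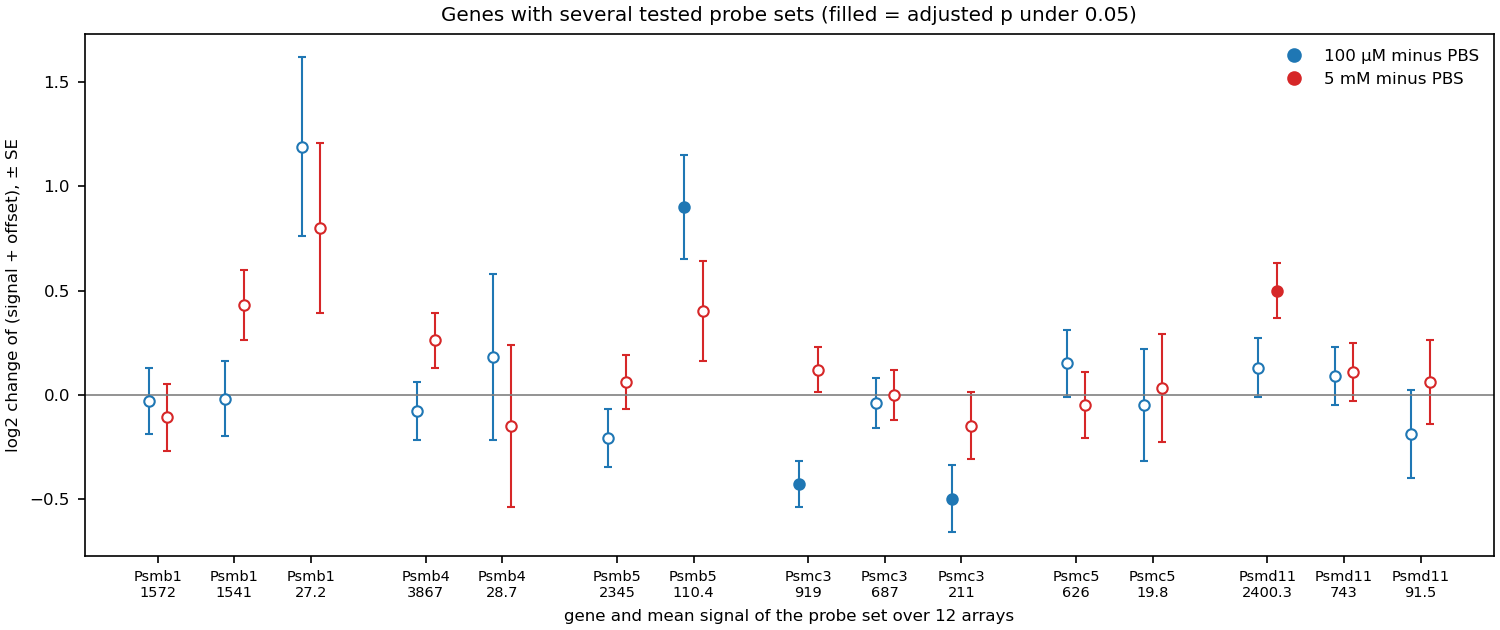
Log2 change of (signal + offset) with SE against the PBS controls at 100 µM (blue) and 5 mM (red) for the 6 genes with several tested probe sets; the number under each gene is the mean signal of that probe set over the 12 arrays, and filled points have an adjusted p under 0.05. Of the 3 Psmc3 probe sets 2 fell at 100 µM, and a dim Psmb5 probe set (mean 110.4) rose by 0.90 where the bright one was at -0.21.

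In 21 genes no comparison passed. Their values lay between -0.43 (Psmc3ip, which encodes a meiotic recombination factor) and 0.52 (Psme3) at the low dose and between -0.86 (Psmb9) and 0.60 (Psmd2) at the high dose. Psmd2, a scaffold gene of the regulatory particle, was read by a probe set at 15.0 ± 12.6 (SD, n = 3) in the controls, close to the offset. The core alpha genes Psma2, Psma3, Psma6 and Psma7 had values of -0.02, 0.09, -0.12 and -0.16 at the low dose and 0.21, 0.25, 0.12 and -0.11 at the high dose. For Psma3 the sign turned to -0.45 (adjusted p = 0.0119) at the low dose and -0.46 (adjusted p = 0.0168) at the high dose after quantile normalization. In the same setting Psma6 turned to -0.30 at the high dose (limma adjusted p = 0.273). Among ATPase genes, Psmc1 had -0.31 ± 0.12 at the low dose (adjusted p = 0.0786, all low-dose arrays below the controls), Psmc2 -0.13, Psmc5 0.15 and Psmc6 0.20, with 0.50 ± 0.18 at the high dose for Psmc6 (adjusted p = 0.0922; 0.0222 without control replicate 1).

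Among the remaining non-ATPase genes, Psmd14, the gene of the deubiquitinase subunit, read 1073, 777 and 847 in the controls, 899.8, 927, 947 and 824 at the low dose, and 742, 651, 859.6, 754 and 773 at the high dose. Its values of 0.01 ± 0.13 and -0.24 ± 0.13 did not pass, and the arrays of all groups overlapped. The scaffold gene Psmd1 had 0.03 and 0.08 at the low and high dose and the lid gene Psmd3 -0.11 and 0.10. The assembly chaperone genes Psmd9 and Psmd10 had -0.09 and -0.07 at the low dose and 0.07 and -0.10 at the high dose. Among activators, Psme3, the gene of a nuclear activator, read 256, 568 and 557 in the controls, 677, 555, 409 and 982 at the low dose, and 604, 674, 472, 687 and 602 at the high dose. Its values of 0.52 ± 0.28 and 0.47 ± 0.26 did not pass, and control replicate 1 was the lowest of all its arrays. Psme4, the gene of a large single-chain activator, had -0.06 ± 0.15 and -0.15 ± 0.14. The partner gene Psme3ip1 had -0.08 and -0.17.

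Genes that work with the proteasome but lie outside the symbol rule were counted from lists. Of 16 tested genes for further subunits, assembly factors and associated proteins, 3 fell, 3 rose and 10 did not pass at the low dose, with a median of -0.10. The shares of all genes that fell and rose there were 12.7% and 11.9%, so these counts are near the background. Sem1, which encodes a small subunit of the lid, had means of 1793 ± 354 (SD) on the controls, 1028 ± 99.9 after the low dose and 2349 ± 277 after the high dose; it fell by 0.78 on the log2 scale at the low dose (adjusted p = 0.00126). The assembly factor genes Pomp and Psmg2 fell by 0.92 (adjusted p = 0.00748) and 1.22 (adjusted p = 0.00154). The genes that rose were Zfand5, whose zinc finger product binds ubiquitin and the proteasome (317 ± 26.1 to 809 ± 165, a change of 1.30 ± 0.16, adjusted p = 5.5e-05), Zfand2a, an arsenite-inducible relative (1.22 ± 0.22), and Txnl1, a thioredoxin-like protein of the regulatory particle (0.85 ± 0.18). At the high dose 1 of the 16 passed, where 12.2% of all genes were called. It was Txnl1, with a rise of 0.60 ± 0.17 (limma adjusted p = 0.0316). Its adjusted p was 0.0910, 0.0671 and 0.0801 without control replicate 1, 2 and 3. Between the doses Sem1, Psmg2, Pomp and the deubiquitinase gene Uchl5 were higher at the high dose (1.18, 0.86, 0.62 and 0.62), and Zfand5 and Zfand2a lower (limma adjusted p = 6.7e-05 and 7.1e-04). That is 4 higher and 2 lower of the 16, beside 13.8% of all genes higher and 15.2% lower. The Pomp difference between the doses did not pass without low-dose replicate 2 or 4 or high-dose replicate 1 or 4 (adjusted p = 0.0966, 0.0927, 0.0589 and 0.0633).

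Of 8 tested genes for transcription regulators of the proteasome and their processing, 3 rose and 5 did not pass at the low dose (median 0.41), where 11.9% of all genes rose. Nfe2l2, the oxidant-responsive activator that binds antioxidant response elements, read 520.0 ± 53.3 on the controls, 860.4 ± 57.5 after the low dose and 563 ± 85.8 after the high dose, a rise of 0.72 ± 0.14 at the low dose (adjusted p = 0.00165). Bach1, a repressor at the same elements, rose by 0.99 ± 0.18 (adjusted p = 0.00144), and Ufd1, a cofactor of the ATPase that extracts ubiquitinated proteins, by 0.56 ± 0.16 (adjusted p = 0.0168; 0.0725 without control replicate 1). Nfe2l1, the main activator of proteasome genes when proteasome activity is low, had 0.23 ± 0.15 at the low dose (adjusted p = 0.273) and 0.25 ± 0.14 at the high dose (adjusted p = 0.280). None of the 8 passed at the high dose in limma, with 1 at an unadjusted p under 0.05. Of the ubiquitin genes and their activating enzymes only Uba7 was tested, at 0.35 ± 0.28 and -0.19 ± 0.26.

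The antigen processing genes, which share interferon control with Psmb8, Psmb9, Psmb10 and Psme1, had 2 of 6 tested members rise at the low dose and 1 fall at the high dose, beside 11.9% of all genes rising at the low dose and 6.84% falling at the high dose. Tapbp, a chaperone of peptide loading, rose by 0.67 ± 0.18 at the low dose (adjusted p = 0.0150; 0.0665 without control replicate 2, and 0.13 on its second probe set), and B2m, the light chain of class I molecules, by 0.60 ± 0.21 (adjusted p = 0.0428; 0.143 and 0.131 without control replicate 2 and 3, 0.113 without low-dose replicate 1). The other 4 did not pass in limma at the low dose. They were H2-K1 at -0.48 ± 0.18 (adjusted p = 0.0638), H2-D1 at -0.45 ± 0.18 (adjusted p = 0.0816), Irf1 at -0.06 and Tap1 at 0.29. The median of the 6 was 0.11, and the list had no common direction. Psmb10 and Psme1 fell in the same comparison. Tap1, a peptide transporter gene, fell by 1.20 on the log2 scale at the high dose (adjusted p = 0.0117; 0.0671 and 0.0550 without control replicate 2 and 3, and 0.02 on its second probe set).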

How the data were processed

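Per the submitters' processing notes the deposited values are MAS5 signals, an intensity on a linear scale with 1 value per probe set and array; no source used here gives the MAS5 version or its scaling target. The 12 arrays had equal 2% trimmed means (within 0.0195%), so the deposited scaling was kept. Arrays have no read depth, and their number limits the precision. The offset added before log2 was 10.07, the 20th percentile of all signals. The 66 control probe sets were left out, and of 12488 probe sets the 8695 with a mean log2 value above the 30th percentile were tested. The fit of limma 3.58.1 (R 4.3.3) had 1 mean for each group, took in the 12 arrays together and used eBayes with a trend (two-sided tests, Benjamini-Hochberg adjustment). The brightest tested probe set stood for a gene, 6414 in all. Symbols came from the platform annotation, updated by Entrez number through RefSeq records of GRCm38.p6 (10839 of 10855 matched). The limma fit was tested on simulated arrays with independent noise and known changes, which does not cover the other steps.

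All proteasome genes were named by the symbol rule, with values per array for genes past the threshold, catalytic and activator genes and the largest changes of each class. Up to 4 genes per list and comparison were named. Uchl5, H2-K1, H2-D1 and Irf1 were named outside that rule, after their values were seen. The members, lists and tests were chosen with earlier results of these data known. Alternatives covered scaling, offset, filter, variance model, array weights, samples fitted, a replicate block, probe set choice, bright probe sets and leaving out each array.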

Additional observations from a re-analysis of the deposited data

Results flagged for a closer look

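Dixon's gap test over the low- and high-dose arrays of the named proteasome genes (68 groups of arrays, of which chance marks about 1 in 20) marked 2 arrays. Psmd8 read 558 on low-dose replicate 1 against 414 to 433 on the other low-dose arrays, and its fall at the low dose was -1.19 without that array. Psme1 read 518 on high-dose replicate 3 against 416 to 442 on the other high-dose arrays. Without it the value against the controls at the high dose was -0.41 (limma adjusted p = 0.118), and that between the doses was 0.54 (adjusted p = 0.0141).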

How the results depend on the processing

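The 10 calls at the low dose became 5, and the 16 between the doses 7, without probe sets of mean signal above 2000, which left 25 genes to test. The calls lost in this setting, also at the high dose, were of genes taken out with their bright probe sets, such as Psmb3 (mean signal 3644) and Psmb7 (2171). Every called gene left in kept its call, so these lower counts say nothing about the stability of the calls. The 6 calls at the high dose became 2 with a common median, 3 without a variance trend, 3 without bright probe sets and 3 with a replicate block. The median log2 change with a common median was -0.30 at the low dose and 0.35 between the doses. After quantile normalization it was -0.05 at the high dose and 0.14 between the doses, and the cause was not tested. Without bright probe sets it was -0.05 and 0.16 over the 25 genes left. Leaving out 1 array gave 8 to 10 calls at the low dose, 2 to 6 at the high dose (2 without control replicate 2, 3 without control replicate 3) and 11 to 16 between the doses (11 without high-dose replicate 1); without low-dose replicate 1 the low-dose calls were 9 lower and 1 higher, the last being Psma4. On second probe sets Psmb4 read -0.33 between the doses and Tap1 0.02 at the high dose. Other calls kept their direction under the alternatives run. Same-numbered arrays of different groups had residual correlations of -0.178 to 0.148 (10 pairs), others -0.162 to 0.177, so numbers were not taken as pairs; the replicate block gave 8 calls at the low dose and 13 between the doses, and with it Psma1 at the high dose was at -0.57 (adjusted p = 0.0580). The number of arrays, and signals near the offset for Psmb8, Psmc4 and Psmd2 and the spread between arrays for Psmb9, limit what could be seen.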
